A study of Homo sapiens with 6 samples.

Results

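The AT/RT cell lines CHLA 02 and CHLA 06 were compared gene by gene. The comparison used 3 of the 6 RNA libraries of the series, namely the 1 library of CHLA 02 and the 2 technical replicates of CHLA 06. CHLA 04 (2 technical replicates) and CHLA 05 (1 library) did not enter the calls between these lines. Their levels are given beside them, and they served for the ratios, the genes of 1 line, the weighted sum and the positions below. Expression was measured in TPM, which corrects read number for transcript length and scales each library to the same total. TPM was summed over the transcripts of a gene identifier. Of 36532 gene identifiers in each file, 36184 were compared, since genes on the Y chromosome and the 2 RNAs of X inactivation were left out of every count. Of these, 14262 had a mean over the 2 lines of at least 1 TPM and are called the genes tested.

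Atypical teratoid rhabdoid tumor is an embryonal tumor of the central nervous system that usually arises after loss of SMARCB1, a core subunit of the SWI/SNF chromatin remodeling complex. The study describes all 4 lines as lacking SMARCB1 expression. It places CHLA 02, CHLA 04 and CHLA 05 in group 1, the neurogenic group also named AT/RT-SHH, and CHLA 06 in group 2, which covers AT/RT-MYC and AT/RT-TYR. The lines were bought from ATCC and were all grown in DMEM:F12 with 20 ng/mL EGF, 20 ng/mL basic FGF and 2% B-27, without another treatment, so both lines of the comparison received the same 2 growth factors. Total RNA was made into stranded TruSeq libraries and read as 125 bp pairs. Each line is 1 model from 1 tumor and was represented by 1 biological sample. The spread between cultures was not measured, and no p-value was computed.

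In the developing brain, neural progenitors keep their identity through SOX and PAX factors, while proneural factors switch on Notch ligands that hold neighboring cells in the progenitor state. Hedgehog signaling acts on such progenitors through GLI factors. MYC and MYCN are related transcription factors that dimerize with MAX, bind E-boxes and raise genes for ribosomes, nucleotides and glycolysis. Mesenchymal cells are marked instead by collagens, and pigment cells by melanosomal enzymes.

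The library of CHLA 02 held 16337847 reads on transcripts, and the CHLA 06 libraries 18765484 and 20520229, as recovered from the TPM steps. Over the 6 libraries the depth lay between 10265899 and 20520229 reads, so that a single read over 1 kb of transcript added between 0.117 and 0.236 TPM. Intervals computed from reads cover counting error only. Mitochondrial genes took 8.44% of the TPM of CHLA 02, against 6.92% and 8.67% in CHLA 06, 1.83% and 3.27% in CHLA 04 and 4.78% in CHLA 05. The technical replicates of CHLA 06 were the yardstick for the calls, and they hold no spread between cultures or of CHLA 02. Their log2(TPM + 2) values differed with an SD of 0.31 over the genes tested, 153 genes (1.07%) differed 2-fold and 0 genes differed 4-fold. The replicates of CHLA 04 differed more, with an SD of 0.48, 2-fold at 602 genes (4.22%) and 4-fold at 11.

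SMARCB1 was read in every library. It stood at 13.5 TPM (114 reads) in CHLA 02 and at 17.3 and 16.2 TPM (187 and 202 reads) in CHLA 06. In CHLA 04 it was at 26.2 and 22.1 TPM, and in CHLA 05 at 16.3 TPM. The gene spans chr22:23786963-23834516 on GRCh38, and transcript values do not show which exons the reads fell in, so protein loss could not be read from them. MYC was at 79.7 TPM in CHLA 02 (95% Wilson interval 75.2 to 84.5) and at 94.1 and 72.1 TPM in CHLA 06. The CHLA 02 value lay inside the range of the CHLA 06 replicates. MYC was near the floor in CHLA 04 (0.61 and 0.94 TPM) and CHLA 05 (1.44 TPM). VIM, the intermediate filament vimentin, was at 13742 TPM in CHLA 02 and at 19464 and 14708 TPM in CHLA 06. NES, the progenitor filament nestin, was at 25.6 TPM in CHLA 02 and at 5.21 and 10.5 TPM in CHLA 06. CHLA 02 was therefore below both replicates for VIM and above both for NES, and neither difference reached 4-fold. All 3 markers were read in both lines, NES at a low level in CHLA 06.

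In the library labelled CHLA 02, genes high in CHLA 06 and genes high in CHLA 04 were read together, and this touches every result that follows. Over the genes of at least 50 TPM in both CHLA 06 libraries (n = 3676), the lowest ratio of CHLA 02 to the CHLA 06 mean was 10.75%, at SPOCK1, and none was under 5%. Over the same genes CHLA 04 was under 5% at 192 and CHLA 05 at 143. Over the genes of at least 50 TPM in both CHLA 04 libraries (n = 3853), the lowest ratio of CHLA 02 was 8.47%, at PLXNA2, and again none was under 5%, whereas CHLA 06 was under 5% at 202 and CHLA 05 at 41. Genes of at least 50 TPM in the 1 CHLA 05 library behaved otherwise: of 4497, CHLA 02 was under 5% at 74, CHLA 04 at 67 and CHLA 06 at 220. Of the 4497, 6 genes had 0 reads in CHLA 02. These included IL13RA2, a decoy receptor for interleukin 13 (165 TPM in CHLA 05), MT3, a brain metallothionein (189 TPM), ATP2B2, a calcium pump (111 TPM), SYT4, a synaptotagmin (50.6 TPM), and FEZF1, a forebrain factor (55.4 TPM).

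Genes read in 1 line alone were counted next. CHLA 05 had 64 genes of at least 10 TPM that were under 1 TPM in every library of the other lines, while CHLA 02 had 0, CHLA 04 had 1 and CHLA 06 had 1. When CHLA 02 was left out of that condition, CHLA 06 had 170 such genes, and CHLA 02 held at least 5% of the CHLA 06 level at 169 of them, with a median of 56.3%. CHLA 04 had 27, with a median of 44.2% in CHLA 02. CHLA 05 had 65, with a median of 0.294% in CHLA 02. A collagen gene shows the difference. COL11A1 reached 1070 TPM in CHLA 05, against 0.0962 TPM in CHLA 02.

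A weighted sum of the line means, with weights fitted over all genes outside the mitochondrial genome and limited to values of at least 0, gave 0.593 for CHLA 06, 0.329 for CHLA 04 and 0.035 for CHLA 05. With this sum, 97.7% of 14508 genes in CHLA 02 lay within 2-fold, the SD of the log2 difference was 0.38, and Pearson's r across genes was 0.977 as a description, since genes share their libraries. The same fit made for the other lines left larger differences. Within 2-fold lay 83.9% of genes for CHLA 04, 82.5% for CHLA 05 and 89.4% for CHLA 06, with SDs of 0.94, 1.0 and 0.83. CHLA 02 was among the lines summed in those fits, and the fit of CHLA 06 gave it a weight of 1.002 and the others 0. A line that would need a weight below 0 cannot be fitted closely in this way. The larger differences therefore do not by themselves set CHLA 02 apart. In bulk RNA, a smaller share of cells with a gene and less of its RNA per cell cannot be told apart. These fits were added after the data had been examined. The expression of CHLA 02 itself and RNA or cells of CHLA 04 and CHLA 06 in this library cannot be told apart from these files, since CHLA 02 had no second library.

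**Figure D1:**
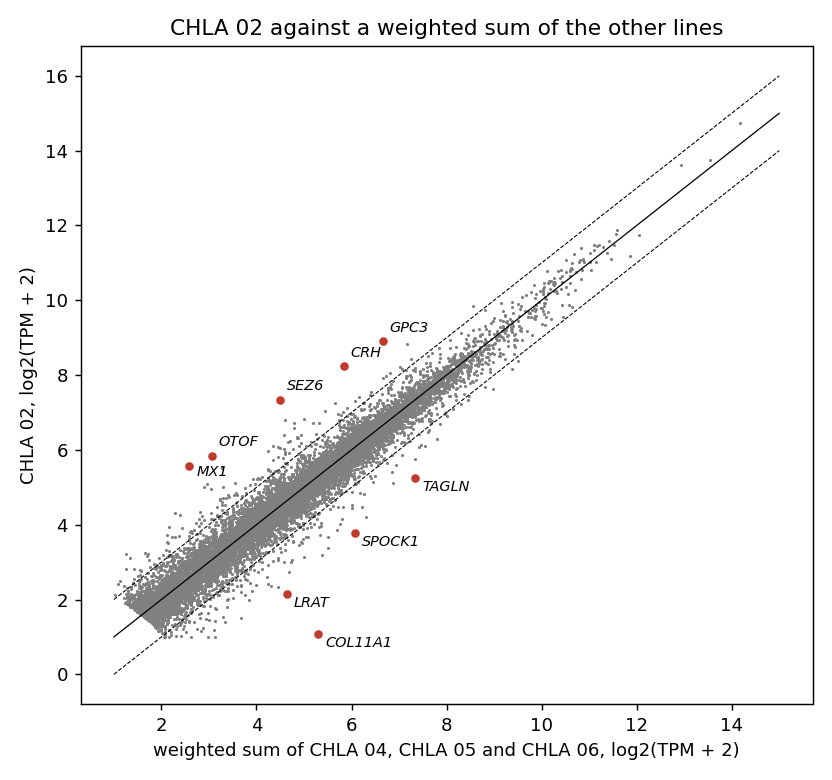
Each point is 1 of 14508 genes, with the TPM of CHLA 02 on the y axis and the fitted weighted sum of CHLA 04, CHLA 05 and CHLA 06 on the x axis, both as log2(TPM + 2). The solid line marks equality and the dashed lines 2-fold. 97.7% of the genes lie between the dashed lines, and named genes in red lie outside them.

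Few genes departed from this sum. CHLA 02 was 4-fold above it at 10 genes (0.0689%) and 4-fold below it at 10 (0.0689%). Among those below it were SPOCK1, CD24, PHOSPHO1, SAMD11 and TAGLN, which had their highest values in CHLA 06. The others were COL11A1, LRAT, PCDH10 and MT3, highest in CHLA 05, and PLEKHG3, highest in CHLA 04. Above it were MX1, an interferon-induced antiviral GTPase, with 45.3 TPM in CHLA 02, 4.48 and 5.24 TPM in CHLA 06, 3.66 and 2.83 TPM in CHLA 04 and 1.16 TPM in CHLA 05, and OAS2, another interferon-induced gene, with 32.3 TPM in CHLA 02 and between 1.05 and 9.17 TPM in the other libraries. SEZ6, a neuronal membrane protein, was at 160 TPM in CHLA 02, at 0.0681 and 0.0279 TPM in CHLA 06, at 52.1 and 52.2 TPM in CHLA 04 and at 97.0 TPM in CHLA 05. CRH, the corticotropin-releasing hormone, was at 301 TPM in CHLA 02, at 36.7 and 148 TPM in CHLA 06 and under 1.1 TPM elsewhere. POU4F1, a transcription factor of sensory neurons, was at 108 TPM in CHLA 02, against 76.7 and 57.3 TPM in CHLA 04. Each of these 5 genes had its highest value of all 6 libraries in CHLA 02. They were named after their values had been seen.

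High expression was largely shared by CHLA 02 and CHLA 06. At least 100 TPM in all 3 libraries was found for 1407 genes, which were 76.9% of the 1830 genes at that level in CHLA 02 and 86.5% of the 1626 in both CHLA 06 libraries. They held 58.7% of the TPM of CHLA 02 and 63.0% and 62.5% of that of the CHLA 06 libraries. Among them were 12 of 13 mitochondrial genes and 75 of 83 ribosomal protein genes. CHLA 02 lay within 2-fold of the CHLA 06 mean at 1342 of them, inside the replicate range at 318, above it at 371 and below it at 718. Their median log2 difference was -0.09.

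The shared genes with the highest levels were MALAT1, a nuclear long noncoding RNA, VIM, EEF1A1, the elongation factor that brings aminoacyl-tRNA to the ribosome, and a row of ribosomal proteins. MALAT1 was at 27284 TPM in CHLA 02 and at 15861 and 20186 TPM in CHLA 06. EEF1A1 was at 12545 TPM in CHLA 02 and at 9710 and 8093 TPM in CHLA 06. MALAT1 and EEF1A1 lay above the CHLA 06 range. TMSB10, an actin monomer binding protein, was at 3507 TPM in CHLA 02 and at 4222 and 4250 TPM in CHLA 06, below that range. RPS12 was at 3792 TPM against 5224 and 4254 TPM, and it was at only 677 to 927 TPM in CHLA 04 and CHLA 05. The other genes named by level were ACTB, RPS3A, RPS2, RPL12, RPS18, RPS24, GAPDH, RPLP0, RPL4 and RPL3. They lay between 2401 and 4627 TPM in the 3 libraries, and RPS24, GAPDH and RPL3 were inside the CHLA 06 range. Genes of ribosomal proteins and actins have near-identical copies, so their values depend on how the authors' mapping assigned shared reads.

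Outside the range of the CHLA 06 replicates by any amount lay 11336 genes, or 79.5% of those tested, with 6146 above (43.1%) and 5190 below (36.4%). A range of 2 technical replicates is narrow, so a difference was called only where TPM + 2 in CHLA 02 was at least 4 times that of the higher CHLA 06 replicate, or the lower CHLA 06 replicate was at least 4 times CHLA 02. By this rule 440 genes were higher in CHLA 02 (3.09% of those tested) and 15 were higher in CHLA 06 (0.105%), 455 in all (3.19%). The count higher in CHLA 06 rested on both replicates, with 38 genes when CHLA 06 replicate 2 was left out and 20 when replicate 1 was. At 2-fold the counts were 1029 (7.21%) and 210 (1.47%). Differences are given as log2(TPM + 2), which understates those of low genes. Just inside the limit lay DNAJC12 (6.78 TPM in CHLA 02, 0.121 and 0.195 TPM in CHLA 06) and TCF7L1 (50.9 TPM against 11.2 and 11.1 TPM). Just outside it lay IFFO1 (6.81 TPM against 0.207 and 0.130 TPM) and IFIT3 (32.7 TPM against 6.53 and 6.71 TPM).

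**Figure D2:**
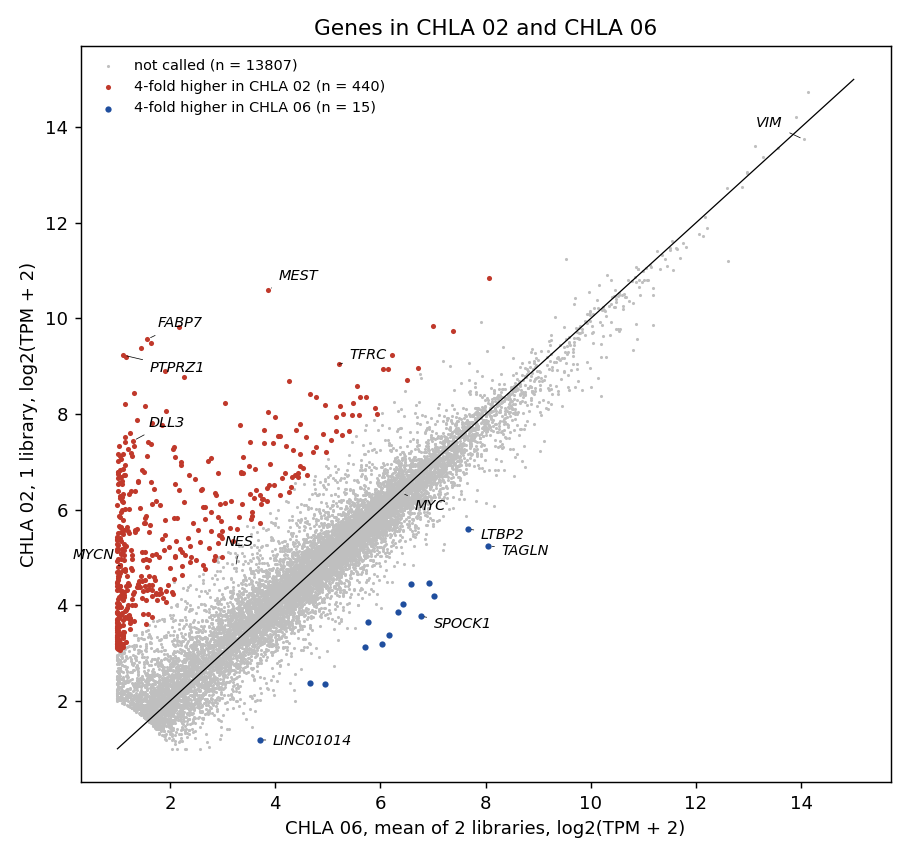
Each point is 1 of 14262 genes tested, with the mean log2(TPM + 2) of the 2 CHLA 06 libraries on the x axis and log2(TPM + 2) of the CHLA 02 library on the y axis. The 440 genes called higher in CHLA 02 (red) reach down to the floor of CHLA 06, while of the 15 called higher in CHLA 06 (blue) only LINC01014, at 0.274 TPM, is under 1 TPM in CHLA 02.

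Genes called higher in CHLA 02 were mostly near the floor in CHLA 06. Leaving aside 1 mitochondrial gene (MT-ATP8, whose reading frame overlaps that of MT-ATP6), 439 genes had a median of 40.1 TPM in CHLA 02 and 0.653 TPM in CHLA 06, and 248 of them were under 1 TPM in CHLA 06. These 248 passed the limit for testing only through CHLA 02. The median of the 439 genes was 86.7 TPM in CHLA 04 and 35.4 TPM in CHLA 05. CHLA 04 had the higher mean at 401 of the 439, and 0 of them were under 1 TPM in CHLA 04, against 32 in CHLA 05.

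The largest difference was that of PTPRZ1 (chr7:121873089-122062036), a receptor tyrosine phosphatase of glial progenitors. It was at 599 TPM in CHLA 02 (26530 reads) and at 0.218 and 0.115 TPM in CHLA 06 (13 and 8 reads), a log2 difference of 8.12 with an SD of 0.05 between the CHLA 06 replicates (n = 2). Its ligand PTN, the growth factor pleiotrophin, was at 587 TPM in CHLA 02 and at 0.321 and 0.145 TPM in CHLA 06. Ligand and receptor were thus both high in CHLA 02 and both near the floor in CHLA 06. In CHLA 04 they were higher still, PTN at 2007 and 1485 TPM and PTPRZ1 at 909 and 1419 TPM.

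FABP7 (chr6:122779475-122784074), the fatty acid binding protein of radial glia, was at 756 TPM in CHLA 02 and at 0.566 and 1.43 TPM in CHLA 06, a log2 difference of 7.998 (SD 0.29). SLC1A3, the glutamate transporter of astrocytes and radial glia, was at 286 TPM against 0.2997 and 1.61 TPM. GPM6B, a neural membrane proteolipid, was at 233 TPM against 0.588 and 0.594 TPM. In CHLA 06 each of these genes was under 2 TPM in both libraries. Extracellular and adhesion proteins were also in this group. SPP1, the secreted phosphoprotein osteopontin, was at 717 TPM in CHLA 02 and at 1.32 and 0.887 TPM in CHLA 06. HAPLN1, which links hyaluronan to proteoglycans, was at 294 TPM against 0.318 and 0.118 TPM. GPC3, a glypican that modulates growth factors at the cell surface, was at 478 TPM against 2.14 and 1.40 TPM, and it alone of the 15 genes with the largest difference was lower in CHLA 04 (323 and 265 TPM) than in CHLA 02.

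The remaining genes of these 15 were ACTG2, TMSB4X, ADGRV1, MEST, TUBB2B, TMTC2 and LIMCH1. MEST (chr7:130486171-130506296), an imprinted gene expressed from the paternal copy, had the highest level, with 1556 TPM in CHLA 02 and 15.7 and 9.96 TPM in CHLA 06. ADGRV1, a very large adhesion receptor, was at 345 TPM against 0.664 and 0.327 TPM. ACTG2 (661 TPM against 0.835 and 0.598 TPM), TMSB4X (897 TPM against 3.09 and 2.02 TPM) and TUBB2B (435 TPM against 2.60 and 3.03 TPM) belong to families of actins, thymosins and tubulins with near-identical members, and their split is uncertain. In CHLA 02 the 15 genes had between 3818 and 36246 reads, and in a CHLA 06 library between 1 and 193. Relative to the mean of CHLA 04, CHLA 02 held between 20.8% and 163% of the level, with a median of 40.1%.

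**Figure D3:**
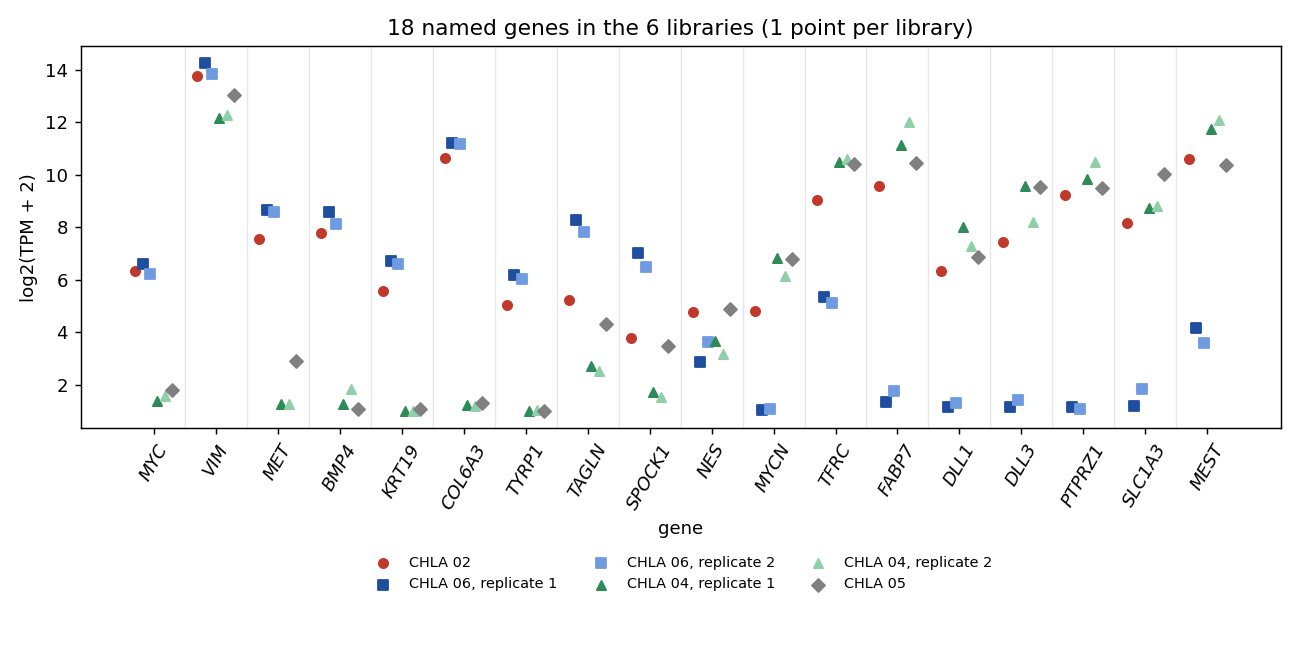
Levels of 18 named genes as log2(TPM + 2), 1 point per library, with CHLA 02 as red circles, CHLA 06 as blue squares, CHLA 04 as green triangles and CHLA 05 as grey diamonds. From MET to SPOCK1, CHLA 02 lies below CHLA 06 and above CHLA 04, and from MYCN to MEST it lies above CHLA 06 and below the CHLA 04 replicates, as in MYCN at 26.3 TPM against 113 and 69.6 TPM.

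Genes of the MYC network were called at 2 of 12 tested, both higher in CHLA 02, against 3.09% of all genes tested. Their median log2 difference was 0.11, against 0.03 over all genes tested. MYCN was at 26.3 TPM in CHLA 02 and at 0.0497 and 0.0900 TPM in CHLA 06. MYCL was at 26.01 TPM against 1.22 and 0.691 TPM. CHLA 02 thus showed all 3 MYC genes at more than 20 TPM, while CHLA 06 showed only MYC at that level. CHLA 04 showed MYCN (113 and 69.6 TPM) and MYCL (63.4 and 43.5 TPM) with MYC under 1 TPM. The partner MAX was at 45.7 TPM in CHLA 02 and at 47.3 and 41.3 TPM in CHLA 06. The repressors MXD1, MXD3, MXD4, MXI1 and MNT and the factors MGA, MLX and MLXIP were not called.

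Of 26 growth genes tested that MYC is known to activate, 1 was called, a share close to the 3.19% of all genes tested, with 5 above the CHLA 06 range, 11 below and 10 inside it, and a median of -0.13. Of the 26, 12 belonged to the shared genes of at least 100 TPM, against 1407 of the 14262 genes tested. NPM1, the nucleolar chaperone nucleophosmin, was at 1271 TPM in CHLA 02 and at 1841 and 1741 TPM in CHLA 06. LDHA, the lactate dehydrogenase of glycolysis, was at 881 TPM against 1495 and 1426 TPM. NCL, the nucleolar protein nucleolin, was at 417 TPM against 410 and 516 TPM. The gene called was TFRC, the transferrin receptor that takes up iron, at 525 TPM in CHLA 02 and at 38.4 and 32.2 TPM in CHLA 06, a log2 difference of 3.83. In CHLA 04 and CHLA 05 it was at 1442 and 1543 TPM and at 1348 TPM, respectively.

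E-boxes of the sequence CACGTG, the preferred site of MYC with MAX, were searched in promoters of 300 bases from RefSeq (GRCh38.p14, 250 bases before the start to 50 after). The sequence is its own reverse complement, so a search of 1 strand covers both strands. It was present in 7.43% of 27305 promoters in the table, in 10.01% of the 10018 of genes tested and in 11.4% of the 1104 of shared high genes. It was present in 7.14% of the 294 promoters of genes higher in CHLA 02. In the growth genes, a list made from known MYC targets, 10 of 21 promoters held it (47.6%). Of these 10, 5 held the E-box upstream of the RefSeq start and had at least 100 TPM in all 3 libraries. For these 5 a window of 30 bases upstream of the start is shown 5′ to 3′ on the strand of the gene, with the E-box in capitals. They were taken from the growth list alone. The letters of the MYC site were held by the promoters of 126 shared high genes, counted over all 300 bases and so also after the start.
LDHA, chr11:18394464-18394493, plus strand: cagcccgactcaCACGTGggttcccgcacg
CDK4, chr12:57752394-57752423, minus strand: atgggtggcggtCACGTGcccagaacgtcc
SRM, chr1:11060200-11060229, minus strand: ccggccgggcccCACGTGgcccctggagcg
HSPD1, chr2:197500345-197500374, minus strand: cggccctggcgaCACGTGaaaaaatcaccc
APEX1, chr14:20455191-20455220, plus strand: aggtccgctaccCACGTGggggctcagcgt
The windows of LDHA, CDK4, HSPD1 and APEX1 lay inside the gene as the bounds used here give it, which include transcripts that start farther upstream, and that of SRM lay outside. A match is a description of letters, and binding was not measured in these files. CDK4, the G1 kinase, was at 221 TPM in CHLA 02 and at 292.5 and 293 TPM in CHLA 06. HSPD1, the mitochondrial chaperonin, was at 755 TPM against 726 and 1055 TPM. SRM, which makes the polyamine spermidine, was at 104 TPM against 101 and 139 TPM, and APEX1, a DNA repair nuclease, at 253 TPM against 313 and 270 TPM. HSPD1 and SRM lay inside the CHLA 06 range and LDHA, CDK4 and APEX1 below it.

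Notch and proneural genes were higher in CHLA 02 at 6 of 15 tested, against 3.09% of all genes tested, and at 0 in CHLA 06. Among the 6 were DLL1, DLL3, HES4, HES6 and HEY1, and the list had a median log2 difference of 1.73. DLL3, a Notch ligand that acts inside the signaling cell, was at 172 TPM in CHLA 02, against 0.229 and 0.707 TPM in CHLA 06, and the activating ligand DLL1 at 78.8 TPM against 0.203 and 0.479 TPM. Both ligands were thus near the floor in CHLA 06 and well above it in CHLA 02. HES6, HES4 and HEY1, transcription factors of the Hairy family, followed with log2 differences of 2.88, 3.10 and 2.18. Receptors were read in both lines. NOTCH2 was at 356 TPM in CHLA 02 and at 92.3 and 81.8 TPM in CHLA 06, short of the limit against the higher replicate. NOTCH3 was at 139.8 TPM against 188 and 134 TPM. Within group 1, HES6 was far lower in CHLA 02 (32.5 TPM) than in CHLA 04 (350.3 and 164 TPM) and CHLA 05 (842 TPM).

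Hedgehog genes were called at 2 of 12 tested, both higher in CHLA 02, against 3.09% of all genes tested. Their median was 0.03. GLI3, which acts mostly as a repressor of the pathway, was at 95.7 TPM in CHLA 02 and at 0.570 and 0.646 TPM in CHLA 06. BOC, a co-receptor for hedgehog ligands, was at 184.5 TPM against 22.3 and 9.47 TPM. The receptor and target PTCH1 (114 TPM against 200.5 and 107 TPM) and the activator and target GLI1 (34.6 TPM against 33.4 and 26.99 TPM) differed little, and neither was called. GLI2 (37.4 TPM against 15.4 and 14.4 TPM) lay above the CHLA 06 range and was not called.

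Neural stem and progenitor genes were higher in CHLA 02 at 8 of 18 tested, against 3.09% of all genes tested. Among the 8 were SOX1, SOX9, SOX11, PAX6, MSI1, FABP7 and POU3F2. Above the CHLA 06 range were 16 of 18, against 43.1% of all genes tested, with a median of 1.75. SOX1, a SOX factor of the early neural plate, was at 81.8 TPM in CHLA 02 and at 0.0455 and 0 TPM in CHLA 06. POU3F2, a POU factor of neural progenitors, was at 48.9 TPM against 0.0264 and 0.0478 TPM. MSI1, an RNA-binding protein of neural stem cells, was at 109 TPM against 8.26 and 8.20 TPM. SOX1 and POU3F2 were therefore read in CHLA 02 and hardly in CHLA 06, while EN1, a midbrain and hindbrain factor, was at 0.548 TPM in CHLA 02 and at 2.58 and 2.05 TPM in CHLA 06. Of 14 glial genes listed, 8 were under 1 TPM in all 3 libraries. Of the 6 tested, 3 were called, all higher in CHLA 02, against the same 3.09%, with a median of 2.06. The 3 were GFAP (23.9 TPM against 0.0419 and 0.0379 TPM), the water channel AQP4 (34.1 TPM against 0.228 and 0.0222 TPM) and SLC1A3. Each of the 3 had a mean under 1 TPM in CHLA 06, so it passed the limit for testing only through CHLA 02.

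Of 10 neuronal genes tested, 2 were called, both higher in CHLA 02, against 3.09% of all genes tested. They were the microtubule protein MAP2 (298 TPM against 7.20 and 5.41 TPM) and the adhesion molecule NCAM1 (73.9 TPM against 0.0735 and 0.0434 TPM). Genes of secretory granules and neurofilaments went in both directions. SCG2, the granule protein secretogranin II, was at 879 TPM in CHLA 02 and at 1626 and 1389 TPM in CHLA 06, and NEFL was at 11.3 TPM against 22.8 and 24.8 TPM. CHGB, another granule protein, was at 453 TPM against 74.0 and 150 TPM. TUBB3, the neuronal tubulin, is listed under 2 identifiers in the files, which went in opposite directions. The first (ENSG00000258947, the one counted in the list) was at 235 TPM in CHLA 02 and at 311 and 455 TPM in CHLA 06. The other (ENSG00000198211) was at 30.4 TPM against 6.42 and 4.93 TPM, and it was among the 10 genes 4-fold above the weighted sum.

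**Figure D4:**
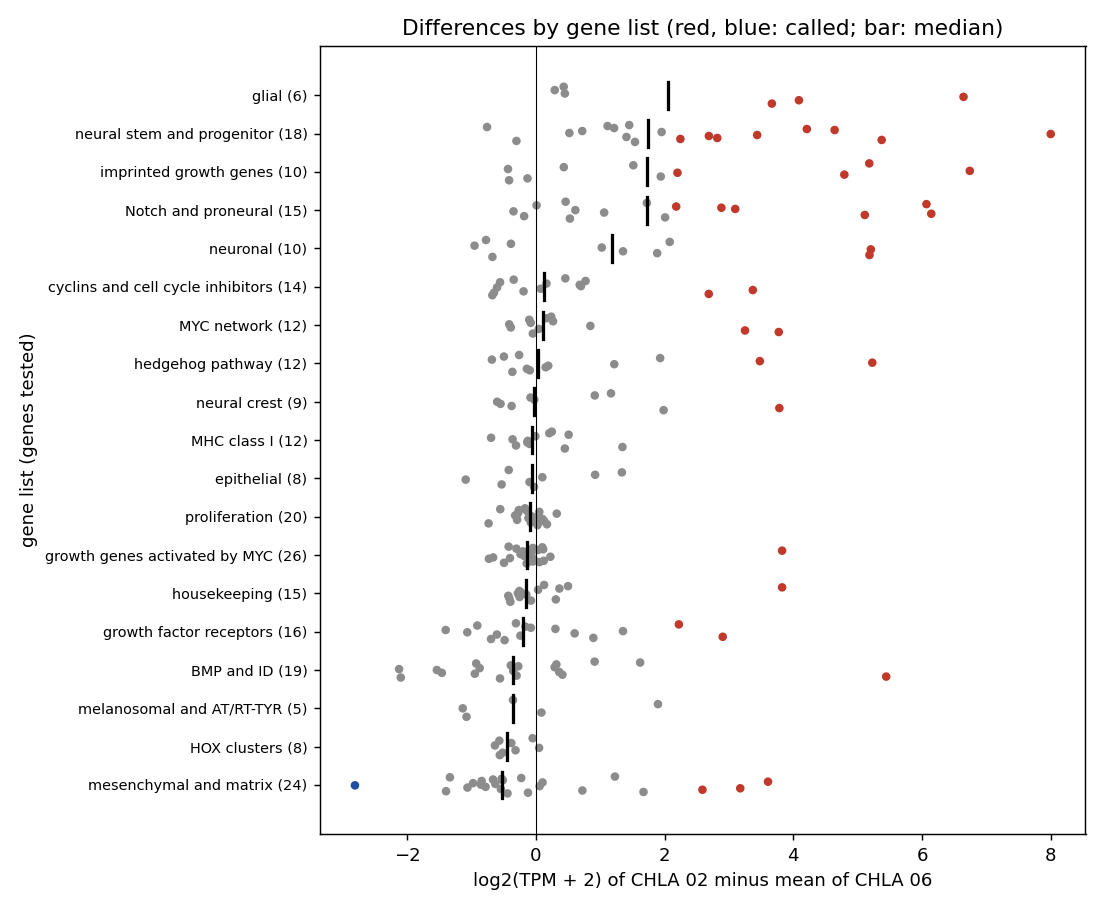
Differences of log2(TPM + 2), CHLA 02 minus the mean of CHLA 06, for the genes of 19 lists with at least 5 genes tested, 1 point per gene, with genes called higher in CHLA 02 in red, genes called higher in CHLA 06 in blue and the list median as a black bar. Medians run from -0.52 in the mesenchymal list to 2.06 in the glial list, against 0.03 over all genes tested.

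Of 24 mesenchymal and matrix genes tested, 1 was called higher in CHLA 06 and 3 were called higher in CHLA 02, with a median of -0.52. Over all genes tested these shares were 0.105% and 3.09%. Below the CHLA 06 range lay 15 of the 24, against 36.4% of all genes tested, and 6 lay above it, against 43.1%. COL6A3, a chain of collagen VI, was at 1597 TPM in CHLA 02 and at 2363 and 2291 TPM in CHLA 06, but at 0.337 and 0.280 TPM in CHLA 04 and 0.478 TPM in CHLA 05. COL1A1 was at 387 TPM against 600.3 and 459 TPM, and COL3A1 at 841 TPM against 1332 and 628 TPM. COL1A1 and COL3A1 were at most 2.91 TPM in CHLA 04 and were at 11.5 and 8.997 TPM in CHLA 05, so all 3 collagens were far lower in the other lines placed in the group of CHLA 02. The gene called higher in CHLA 06 was TAGLN, the smooth muscle actin-binding protein transgelin (36.0 TPM against 309 and 225 TPM). The genes called higher in CHLA 02 were fibronectin FN1 (67.5 TPM against 7.59 and 4.17 TPM), the transcription factor ZEB1 (167 TPM against 10.5 and 13.4 TPM) and COL6A2 (77.2 TPM against 10.4 and 11.98 TPM). ZEB1 and its relative ZEB2 went in opposite directions, with ZEB2 at 50.03 TPM in CHLA 02 and at 96.1 and 86.5 TPM in CHLA 06.

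Melanosomal genes, which give AT/RT-TYR its name, were mostly at the floor in both lines. Of 5 tested, 0 were called, against 3.19% of all genes tested. CHLA 02 lay below the CHLA 06 range at 3 of the 5 and above it at 1, with log2 differences from -1.13 to 1.90. TYR itself was not among those tested. TYRP1, the tyrosinase-related protein, was at 30.8 TPM in CHLA 02 and at 71.5 and 63.0 TPM in CHLA 06, and the pigment transporter OCA2 at 9.59 TPM against 35.2 and 15.4 TPM. In CHLA 04 and CHLA 05 TYRP1 was at most 0.0508 TPM. HOX genes, which mark position along the body axis behind the forebrain, were tested at 8 of 39. Of these 8, 0 were called, against 3.19% of all genes tested, with a median of -0.45. HOXB2 was at 11.8 TPM in CHLA 02 and at 20.0 and 16.8 TPM in CHLA 06, and it had 0 TPM in CHLA 04 and CHLA 05. Neural crest genes were called at 1 of 9 tested, SOX8 (31.3 TPM against 0.452 and 0.387 TPM), with a median of -0.02. Over all genes tested, 3.09% were called higher in CHLA 02.

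Epithelial genes were called at 0 of 8 tested, against 3.19% of all genes tested, with a median of -0.06. CHLA 02 lay below the CHLA 06 range at 5 of the 8 and above it at 2, with log2 differences from -1.09 to 1.34. The keratin KRT8 was at 55.1 TPM in CHLA 02 and at 81.6 and 79.3 TPM in CHLA 06, and KRT19 at 45.7 TPM against 104 and 95.3 TPM, with at most 0.188 TPM of either in CHLA 04 and CHLA 05. PRAME was the only 1 of 18 cancer testis genes tested, at 53.6 TPM in CHLA 02 and at 74.9 and 70.5 TPM in CHLA 06. Markers of blood and vessel cells were tested at 1 of 16 (CD68, at 6.36 TPM against 6.34 and 22.6 TPM), and those of skeletal muscle, liver and pluripotent cells at 1 of 12 (UTF1, at 2.20 TPM in CHLA 02 and listed at 0 in CHLA 06). The stem cell marker genes PROM1 and LIN28B were low, PROM1 at 1.64 TPM and LIN28B at 5.84 TPM in CHLA 02.

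Of 19 genes of BMP signaling tested, 12 lay below the CHLA 06 range, 7 above it, and 1 was called higher in CHLA 02, with a median of -0.35. Over all genes tested these shares were 36.4%, 43.1% and 3.09%. The ligands took opposite directions. BMP7 was at 90.9 TPM in CHLA 02 and at 0.210 and 0.0630 TPM in CHLA 06, while BMP4 was at 220 TPM against 379 and 277 TPM. BMP4 was at most 1.61 TPM in CHLA 04 and CHLA 05. The inhibitory SMAD7 was at 2.69 TPM in CHLA 02 and at 20.7 and 16.4 TPM in CHLA 06, and BMP6 at 0.753 TPM against 8.27 and 11.5 TPM. Targets of the pathway were read in both lines at high levels, as in ID1 (319 TPM against 272 and 249 TPM) and ID3 (374 TPM against 531 and 451 TPM).

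Growth factor receptors were called at 2 of 16 tested, both higher in CHLA 02, against 3.09% of all genes tested. The 2 were FGFR1 (493 TPM against 64.1 and 64.1 TPM) and the collagen receptor DDR1 (278 TPM against 61.0 and 54.9 TPM). The list median was -0.20. EGFR, the receptor of the EGF in the medium, was at 199 TPM in CHLA 02 and at 299 and 260 TPM in CHLA 06. MET, the receptor of hepatocyte growth factor, was at 187 TPM against 407 and 381 TPM. MET and EGFR thus had the reverse order of FGFR1. In CHLA 04 MET was at 0.379 and 0.383 TPM and FGFR1 at 2054 and 1720 TPM, and CHLA 02 lay between CHLA 06 and CHLA 04 for both.

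Imprinted growth genes had a median of 1.73. Of 10 tested, 4 were called, all higher in CHLA 02, against 3.09% of all genes tested. Besides MEST they were PEG3 (126 TPM against 2.48 and 2.73 TPM), the retrotransposon-derived PEG10 (417 TPM against 85.0 and 93.7 TPM) and ZIM2, which shares its first exons with PEG3 (93.3 TPM against 0.483 and 0.781 TPM). DLK1, a paternally expressed Notch ligand relative, was at 58.3 TPM in CHLA 02 and at 64.7 and 94.7 TPM in CHLA 06. Cell cycle regulators were called at 2 of 14 tested, both higher in CHLA 02, against the same 3.09%, with a median of 0.12. The 2 were the G1 cyclin CCND3 (140.5 TPM against 16.4 and 24.6 TPM) and its kinase CDK6 (107 TPM against 8.66 and 8.35 TPM). CCND2, a further G1 cyclin, was at 96.0 TPM in CHLA 02 and at 144.5 and 162 TPM in CHLA 06. Proliferation genes were called at 0 of 20, where 3.19% of all genes tested were called in either direction. CHLA 02 lay inside the CHLA 06 range at 17 of the 20, against 2926 of the 14262 genes tested. That range was wide, as in RRM2, a subunit of ribonucleotide reductase (203 TPM against 129.9 and 400.5 TPM). MHC class I genes were called at 0 of 12, against 3.19% of all genes tested, with B2M at 550 TPM against 693 and 519 TPM. Housekeeping genes were called higher in CHLA 02 at 1 of 15, which was TFRC again, against 3.09% of all genes tested.

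Over the 22 lists, 37 genes were called higher in CHLA 02 among 261 tested, against 3.09% of all genes tested. The CHLA 04 mean was above the CHLA 02 value at all 37. The lists were chosen with earlier results of these data known, so their counts describe these genes and do not stand for the genome.

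The 15 genes called higher in CHLA 06 were led by SPOCK1 (chr5:136975298-137598379), a secreted proteoglycan, at 11.7 TPM in CHLA 02 and at 129 and 88.7 TPM in CHLA 06, a log2 difference of -2.99 with an SD of 0.37 between the replicates (n = 2). CD24, a glycosylated surface protein, was at 7.09 TPM against 67.0 and 59.9 TPM. SAMD11 was at 16.3 TPM against 148 and 109 TPM. TAGLN, given with the matrix genes, came next. None of these reached the floor in CHLA 02, where SPOCK1 had 315 reads and CD24 had 87.

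The others were PHOSPHO1, a phosphatase of mineralizing cells (8.42 TPM against 96.5 and 50.3 TPM), the prostaglandin dehydrogenase HPGD (6.75 TPM against 48.5 and 52.5 TPM), KANK4, TSPAN7, LYSMD2, EFR3B, RPL36A, the noncoding RNAs LINC01014 and PCAT14, TFEC and LTBP2. TFEC, a relative of the pigment cell factor MITF, was at 10.7 TPM in CHLA 02 and at 50.7 and 54.3 TPM in CHLA 06. LTBP2, a latent TGF-beta binding protein of the matrix, was at 46.4 TPM against 206 and 195 TPM. LINC01014 was the closest to absent, with 1 read in CHLA 02 and 45 and 53 reads in CHLA 06. RPL36A has processed copies in the genome, and its value is uncertain. At all 15 genes CHLA 02 lay above the mean of CHLA 04, and it held between 2.48% and 23.1% of the CHLA 06 mean.

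Where CHLA 02 lay between the 2 other lines was measured as a position, with 0 at the CHLA 06 mean and 1 at the CHLA 04 mean, over genes that differed 4-fold between every library of CHLA 04 and every library of CHLA 06. These genes were chosen without CHLA 02. Of 763 genes higher in CHLA 04, CHLA 02 lay between the lines at 741 (97.1%), with a median position of 0.35 and quartiles of 0.23 and 0.49. Of 667 genes higher in CHLA 06, it lay between them at 602 (90.3%), with a median of 0.42 and quartiles of 0.25 and 0.57. CHLA 05, of the same group as CHLA 04, lay between them at 72.1% and 72.4%, with medians of 0.45 and 0.98. Genes of CHLA 06 were thus near the CHLA 04 level in CHLA 05, and at an intermediate level in CHLA 02.

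**Figure D5:**
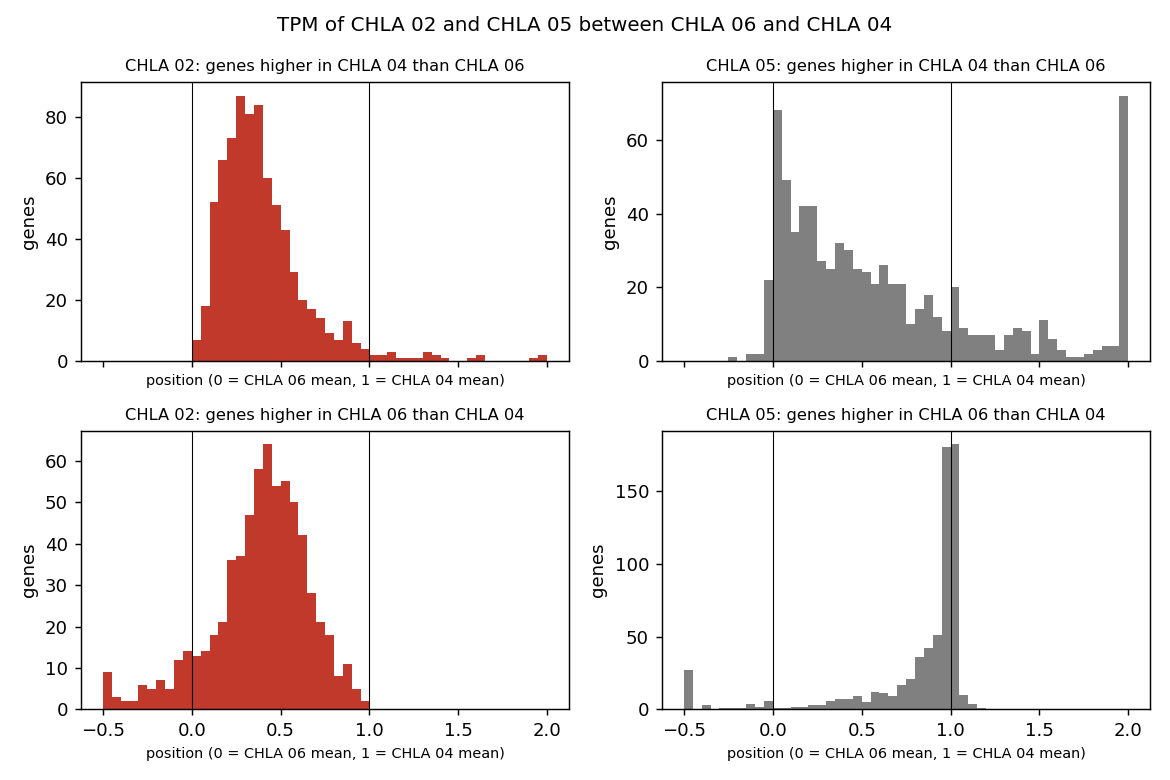
Number of genes by position, in bins of 0.05, for CHLA 02 (left, red) and CHLA 05 (right, grey), over 763 genes higher in CHLA 04 (top) and 667 higher in CHLA 06 (bottom). Position 0 is the CHLA 06 mean and 1 the CHLA 04 mean, and values beyond the axis are drawn in the outermost bins. CHLA 02 has 1 peak between the lines in both panels, with medians of 0.35 and 0.42.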

How the data were processed

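Total RNA of 4 AT/RT cell lines was sequenced as 6 stranded paired-end libraries. Per the labels and the study's methods, the authors checked and trimmed the reads with FastQC and Trimmomatic, used CLC Genomics Workbench to map them on GRCh38, and deposited TPM per Ensembl transcript, 1 file per library. The versions of these tools are not given in the sources used here, apart from CASAVA 1.8.2 in the submitters' processing notes. The 6 files on LTR elements were not used here.

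TPM was summed by gene identifier with Python 3.11.15, pandas 2.3.3, numpy 2.4.6 and scipy 1.17.1. TPM multiplied by transcript length was a whole multiple of 1 read, within 0.1 read, for at least 99.8% of values in each library. The whole reads served for depth and Wilson intervals. Since each line had 1 biological sample and CHLA 02 had 1 library, no count model was fitted and no test was made. The scale was log2(TPM + 2), genes with a mean over the 2 lines of at least 1 TPM were tested, and a call needed 4-fold beyond both CHLA 06 libraries. The steps were tested on simulated data before use.

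Genes named in the text were MYC, VIM, NES and SMARCB1, 2 to 6 members per list and those called (some are not reported here by name), the 15 genes per direction with the largest difference among those of at least 10 TPM in the higher line, the 15 shared genes with the highest lowest value, and the genes with the lowest ratios to another line. Other genes of the 22 lists given with values, and genes beyond the weighted sum, are outside this rule. The members and lists were chosen with earlier results of these data known. The weighted sum, the position and the genes of 1 line were added after the data had been examined. Of 408 listed symbols, 407 were found in the files. Promoter sequences came from RefSeq on GRCh38.p14.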

Additional observations from a re-analysis of the deposited data

How the results depend on the processing

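No paired analysis was possible because CHLA 02 had 1 library and the replicate numbers of CHLA 04 and CHLA 06 name technical replicates. No call has a replicate of culture behind it. The count of genes higher in CHLA 02 (440) was within 1.5 times of this under the other scalings and with either CHLA 06 replicate left out (468 to 485), and it became 679 with a pseudocount of 0.5, 1029 at 2-fold and 220 at 8-fold. The count higher in CHLA 06 (15) became 37, 210 and 0 under the same settings. It was 20 without CHLA 06 replicate 1 and 38 without replicate 2. A call needed 4-fold beyond both CHLA 06 libraries, so leaving 1 out could only add calls, in either direction. Why leaving out replicate 2 added more of them was not tested. The shared high genes (1407) became 3343 at 50 TPM, 540 at 200 TPM and 706 with the most abundant transcript of each gene, and the CHLA 06 replicates differed 2-fold at 352 genes rather than 153 with a pseudocount of 0.5. Of 64 named genes that were called, 56 were called under all 8 alternatives and 0 changed sign. Of the 18 named genes that were not called, 10 changed sign under an alternative. PAX6, HEY1, HPGD, PCAT14, TFEC, LINC01014, PHOSPHO1 and EFR3B were lost with the most abundant transcript, HEY1 also after quantile normalization.

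The lowest ratio of CHLA 02 to CHLA 06 (10.75%) was 9.31% with the most abundant transcript, and between 8.72% and 11.8% with either CHLA 06 replicate left out, the lowest without replicate 2. That to CHLA 04 (8.47%) was 5.36% over genes of at least 20 TPM. The weight of CHLA 04 (0.329) was 0.351 without the CHLA 05 term, 0.302 with mitochondrial genes, 0.315 on even-numbered chromosomes and between 0.298 and 0.337 with 1 replicate of CHLA 04 or CHLA 06 left out. The weight of CHLA 05 (0.035) was 0.065 and 0.0085 on odd- and even-numbered chromosomes and between 0.0217 and 0.0636 with 1 replicate left out, the highest without CHLA 04 replicate 2. The weight of CHLA 06 (0.593) was 0.631 with mitochondrial genes, 0.549 and 0.636 on odd- and even-numbered chromosomes and between 0.553 and 0.615 with 1 replicate left out. These settings of the weights, and those of the ratio that leave out a replicate, were chosen after the data had been examined.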
